A study of Mus musculus with 8 samples.

Results

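The 45 genes described here encode the machinery of mitosis: the G2/M cyclins and their kinase, other mitotic kinases, kinetochore and checkpoint proteins, the chromosomal passenger complex, mitotic kinesins, spindle and cytokinesis proteins, regulators of mitotic exit, and proteins that shape chromosomes. They were chosen by name, from a list of gene symbols, and not by a threshold on these data. Earlier results of these data were known when they were chosen. All 45 were present in the tables of both experiments, among 12133 genes listed in vitro and 12665 in vivo, 13073 genes in all. Their messages were measured by RNA sequencing of sorted mouse thymocytes in 8 libraries, 2 per group in 4 groups.

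Mice labelled WT had the genotype Bcl6fl/fl, in which the gene for the transcriptional repressor BCL6 is flanked by loxP sites, and mice labelled KO had the genotype Bcl6fl/fl Cd4cre, in which Cre recombinase is driven by Cd4 control elements and is active from about the CD4+CD8+ double-positive (DP) stage. All 4 groups therefore carried the floxed allele, and the WT label names no Cre; the labels give no age. For the in vitro groups, DP thymocytes were sorted, stimulated for 24 h with plate-bound antibodies to CD3 (8 μg/ml) and CD28 (8 μg/ml), and the CD4-CD8- (DN) cells that had formed were sorted for RNA. For the in vivo groups, CD4-CD8-CD5+TCRb+ thymocytes, called agonist-p in the labels, were sorted directly. The libraries were built by Novogene (in vitro) and BGI Genomics (in vivo), so the system and the company cannot be told apart in a direct comparison of levels. The labels do not say whether replicates came from separate mice or cultures, so each p-value reflects only how far these particular libraries differ, and that spread may be technical.

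The libraries held between 14754440 and 23975636 counts. Bcl6 itself did not check the labels. In vitro its level was 24.9 and 21.9 FPKM (fragments per kilobase of transcript, scaled to library size) under the WT label and 64.6 and 61.0 FPKM under the KO label. In vivo the values were 11.5 and 13.9 FPKM under the WT label and 8.81 and 14.4 FPKM under the KO label. Gene totals do not show which exons were read, so every direction given here compares libraries by their labels, KO against WT. The defining T cell genes Cd3d, Cd3e, Cd3g, Cd2, Cd5 and Lck were present in every library, with summed levels of 1103 to 1286 FPKM in vitro and 949 to 1155 FPKM in vivo.

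As background, cells enter mitosis when cyclin B and CDK1 are activated, and the spindle checkpoint then holds the anaphase-promoting complex (APC/C) in check until every chromosome is attached to microtubules. Most genes of this machinery are expressed periodically, with a peak in G2 and M, under the DREAM complex, which represses them in resting cells, and the B-MYB-MuvB and FOXM1 complexes, which activate them in dividing cells. Both act through the cell cycle genes homology region (CHR), often near CCAAT boxes bound by NF-Y. In the thymus, proliferation is high in DN cells after pre-T cell receptor signalling, and most DP thymocytes are small resting cells. In bulk RNA, a larger share of dividing cells and more of a message per cell cannot be told apart.

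The promoters of the genes share these sequence elements, which the choice of genes did not use. RefSeq promoter windows of 300 bases (250 before the start site and 50 from it, GRCm38.p6) were matched by symbol for 38 of the 45 genes, giving 40 windows because Ect2 and Prc1 have 2 overlapping windows each, so that their matches can count under both. The letters searched were TTTGAA, its reverse complement TTCAAA and the palindrome TTCGAA for the CHR, and CCAAT and its reverse complement ATTGG for the CCAAT box. A CHR match was present in 33 of the 40 windows (82.5%), against 19.2% of 32851 windows of all genes. A CCAAT box was present in 77.5% of the member windows and 37.4% of all windows. Both were present in 72.5% and 7.52%. Of 47 CHR matches, 33 began between 40 bases before and 45 bases after the start site, an interval chosen after the positions were seen. In 1 window a CHR match shared bases with a CCAAT box. The windows of Nuf2, Nusap1, Cenpe, Melk, Tacc3, Birc5 and Ccnb1 held none of these CHR letters. A match is a description of letters, and binding was not measured.

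The following 5 windows are shown because their genes were the most abundant of their role group in at least 1 system, and because they include the genes that moved in opposite directions in vitro. They are a selection: Bub1b, Plk1, Cenpa and Aurka were also the most abundant of their role in a system and hold a CHR match, but are not shown. Capitals mark CHR and CCAAT matches in either orientation, and each run goes 5′ to 3′ from 130 bases before the RefSeq start to at most base 30 of the annotated gene. Ccnb2 is at chr9:70421525-70421684 (minus strand), Kif11 at chr19:37376252-37376411 (plus), Kif15 at chr9:122950951-122951075 (plus), Cdc20 at chr4:118437323-118437473 (minus) and Racgap1 at chr15:99651627-99651786 (minus).
Ccnb2: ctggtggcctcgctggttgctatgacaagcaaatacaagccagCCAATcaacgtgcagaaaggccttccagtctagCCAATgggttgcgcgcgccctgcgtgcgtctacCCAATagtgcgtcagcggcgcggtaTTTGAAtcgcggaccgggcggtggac
Kif11: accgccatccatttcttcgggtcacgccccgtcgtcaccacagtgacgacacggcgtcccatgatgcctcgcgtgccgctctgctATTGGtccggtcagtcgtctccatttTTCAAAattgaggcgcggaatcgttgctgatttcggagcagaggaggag
Kif15: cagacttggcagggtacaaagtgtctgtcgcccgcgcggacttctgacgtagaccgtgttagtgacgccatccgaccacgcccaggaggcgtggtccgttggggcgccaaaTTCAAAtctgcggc
Cdc20: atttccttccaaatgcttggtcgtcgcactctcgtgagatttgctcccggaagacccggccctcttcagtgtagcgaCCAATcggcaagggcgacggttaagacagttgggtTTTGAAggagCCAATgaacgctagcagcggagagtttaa
Racgap1: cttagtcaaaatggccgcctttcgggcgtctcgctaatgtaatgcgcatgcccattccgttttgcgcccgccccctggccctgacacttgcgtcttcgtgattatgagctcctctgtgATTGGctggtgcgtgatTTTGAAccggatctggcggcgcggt
Kif15 and Racgap1, which fell in vitro, and Cdc20, which did not pass there, each hold 1 CHR match in these stretches, as do Ccnb2 and Kif11, which rose. In the stretch shown for Kif15 there is no CCAAT box, while the other 4 have 1 or more.

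**Figure D1:**
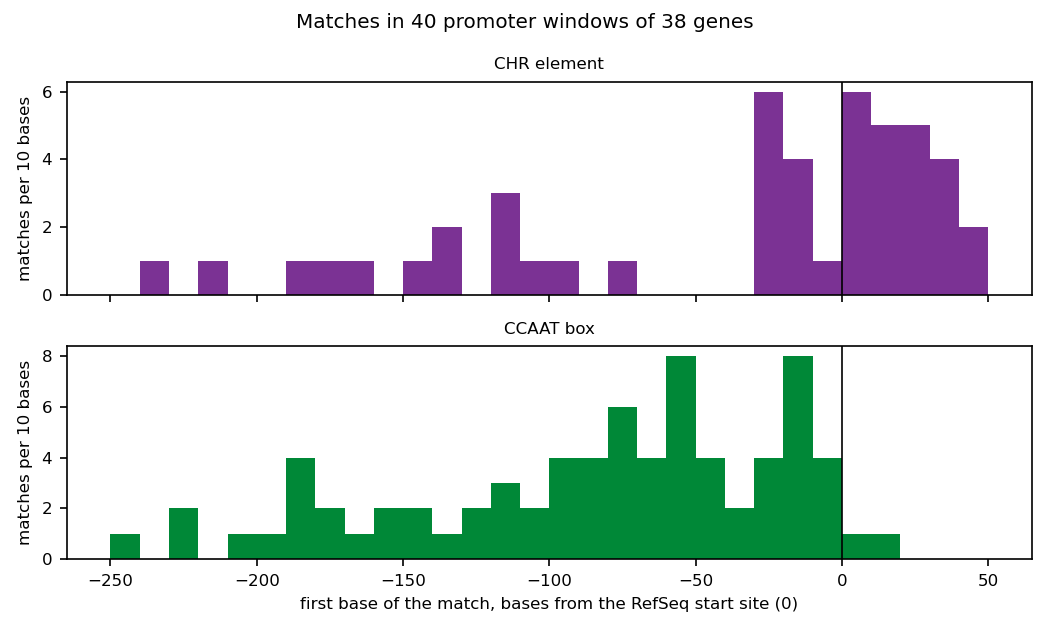
Number of CHR matches (top) and CCAAT boxes (bottom) per 10 bases along the 40 promoter windows of 38 genes, with the position of the first base of each match relative to the RefSeq start site on the horizontal axis. Of the 47 CHR matches 33 begin from 40 bases before to 45 bases after the start, while most CCAAT boxes lie before it.

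In vitro, most of the 45 genes were low and most were higher in the libraries labelled KO. The median over the genes was 0.464 and 0.578 FPKM in the WT libraries and 0.911 and 0.837 FPKM in the KO libraries, while the median listed gene had a mean of 6.91 FPKM. In the edgeR quasi-likelihood test without a filter on level, 27 of the 45 rose (adjusted p under 0.05), 2 fell and 16 did not pass. Among all 12133 genes, 17.5% rose and 16.5% fell by that rule. Both KO libraries lay above both WT libraries for 33 genes and below them for 3, against 33.7% and 34.4% of all genes, and for 9 genes the groups overlapped. The median log2 fold change was 0.72 over the 45 genes and -0.00 over all genes, and the genes ranged from -0.50 (Kif15) to 3.10 (Pbk).

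The count of risen genes depended on KO replicate 1, which was higher than KO replicate 2 for 36 of the 45 genes. Without it 15 of the 45 rose (15.8% of all genes did), and DESeq2 on all 4 libraries gave 16 (13.7% of all genes). With the filter on level (at least 1 FPKM in at least 2 libraries) 20 of the 45 genes were tested. Of these 11 rose and 2 fell. The filter was passed only through the KO libraries by 5 genes, Mki67, Plk1, Kif11, Kif20a and Cdca3. Of the 11 risen genes 7 had at least 1 FPKM in a WT library, and the others were Mki67, Plk1, Kif11 and Kif20a. Those others also rose in the fit without the filter. Among all 9658 genes tested with the filter, 20.1% rose and 17.7% fell. The remaining 25 genes were below the filter, 23 of them under 1 FPKM in every library. Below, counts per role are from the fit without the filter, the fold changes of the 20 genes are from the fit with the filter and those of the 25 from the fit without it. Adjusted p-values are edgeR's, by Benjamini-Hochberg over all genes of the fit.

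**Figure D2:**
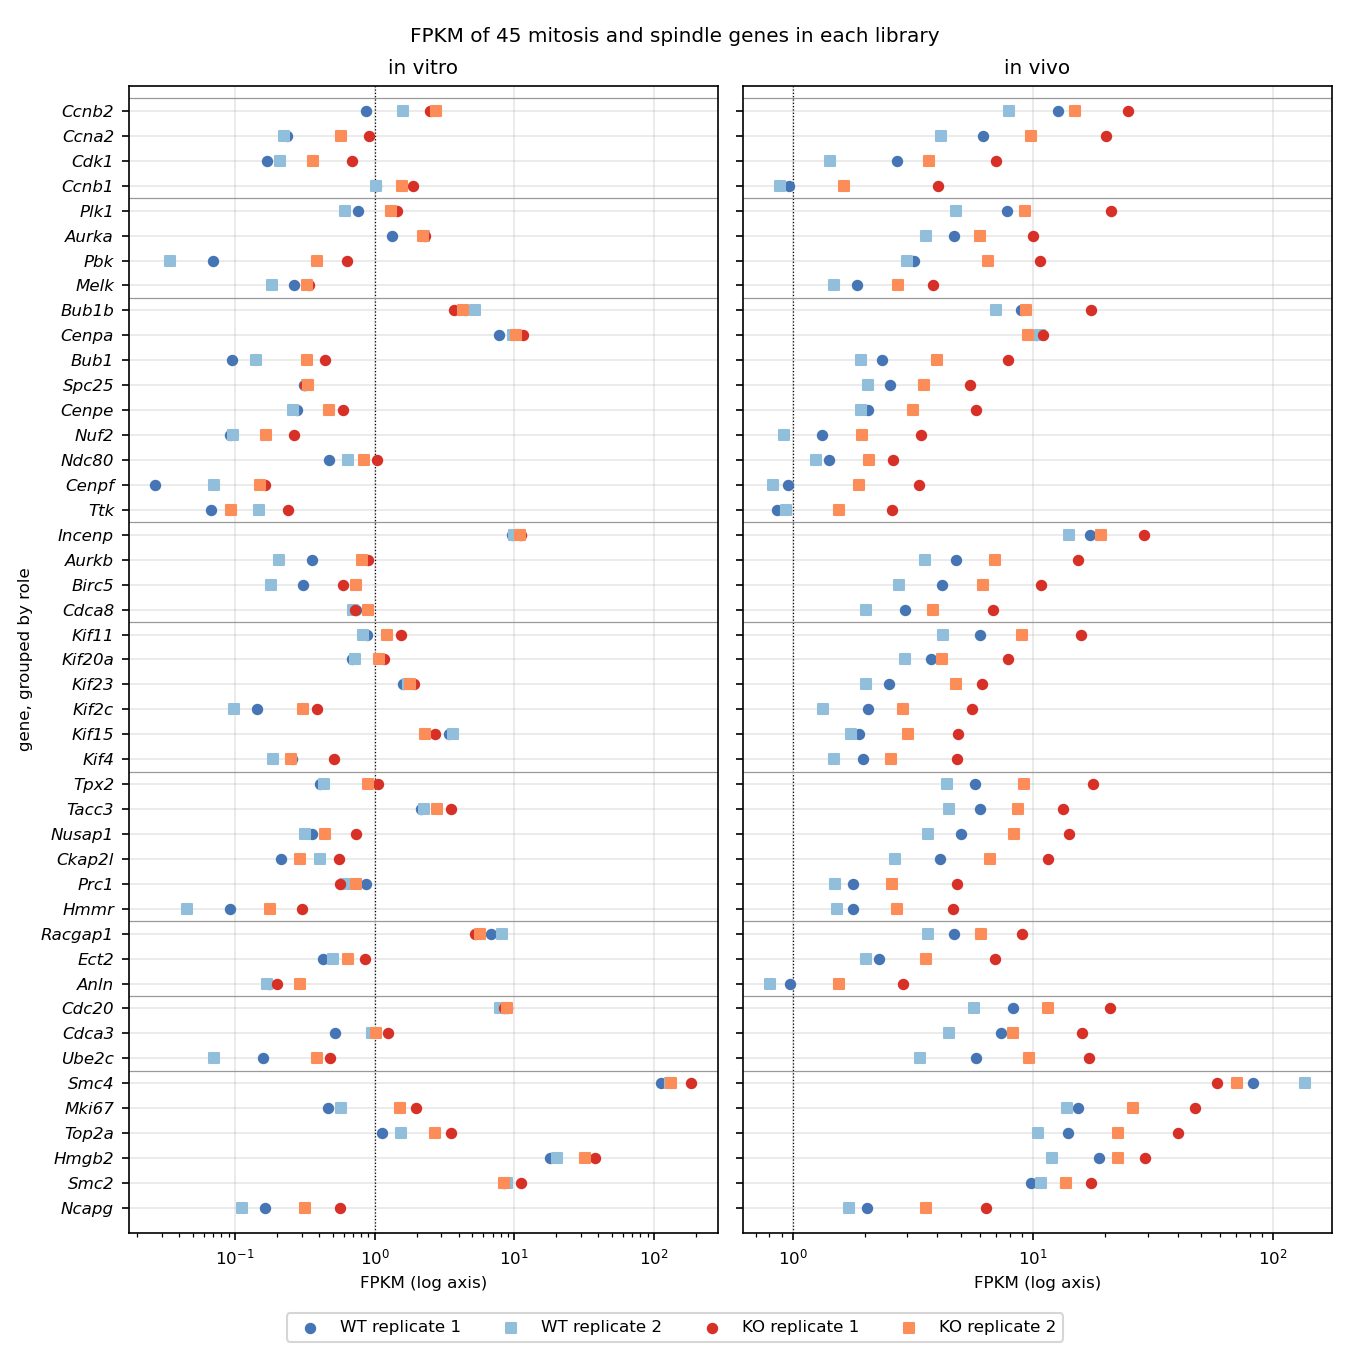
FPKM of each of the 45 genes in the 4 in vitro libraries (left) and the 4 in vivo libraries (right), on log axes with a dotted line at 1 FPKM and with grey lines between role groups. In vitro both KO libraries lie to the right of both WT libraries for 33 genes, and in vivo for 43 genes, with Smc4 the other way round.

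All 4 genes of the cyclin and CDK1 engine rose in vitro in the fit without the filter. Ccnb2, a B-type cyclin, was at 0.871 and 1.60 FPKM in the WT libraries and 2.50 and 2.77 FPKM in the KO libraries. Its log2 fold change was 1.17 (SE 0.29, adjusted p = 0.00816). Ccnb1, the main mitotic cyclin, was at 1.03 FPKM in both WT libraries and at 1.88 and 1.57 FPKM in the KO libraries (log2 fold change 0.77, SE 0.19, adjusted p = 0.00885). For both cyclins the KO libraries were above the WT libraries. Without WT replicate 1 the adjusted p of Ccnb2 was 0.0767, and without KO replicate 1 that of Ccnb1 was 0.0676. Ccna2, the cyclin of S phase and G2, was below the filter, with 0.235 and 0.225 FPKM under WT and 0.911 and 0.575 FPKM under KO (log2 fold change 1.67, adjusted p = 0.00181). Cdk1, the kinase they activate, was at 0.169 and 0.211 FPKM under WT and at 0.685 and 0.364 FPKM under KO (log2 fold change 1.46, adjusted p = 0.00842). Exons of Exosc9 on the opposite strand share 12.5% of the exon bases of Ccna2, and since the strand setting of the counting is not given, reads there cannot be told apart.

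Of 4 other mitotic kinases 2 rose. Plk1, the polo-like kinase that acts in centrosome maturation and mitotic exit, was at 0.758 and 0.612 FPKM in the WT libraries and 1.44 and 1.32 FPKM in the KO libraries (log2 fold change 1.01, SE 0.26, adjusted p = 0.00999). The DESeq2 adjusted p for Plk1 was 0.0571. Pbk, a mitotic serine/threonine kinase, gave the highest fold change on very few counts, 3 and 1 under WT and 20 and 15 under KO. The ratio of KO to WT, scaled to library size, was 9.11 (95% exact interval 3.26 to 35.3, which covers counting error only). Aurka, the Aurora kinase of the spindle poles, was the most abundant of the 4 and did not pass, at 1.33 and 2.25 FPKM under WT and 2.29 and 2.22 FPKM under KO (log2 fold change 0.39, adjusted p = 0.239). Melk, a kinase of dividing cells, did not pass either, with a log2 fold change of 0.52 (SE 0.41).

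Among 9 kinetochore and checkpoint genes 6 rose and none fell. Cenpa, the centromeric histone H3 variant, was the most abundant, at 7.80 and 9.71 FPKM under WT and 11.5 and 10.2 FPKM under KO (log2 fold change 0.34, SE 0.12, adjusted p = 0.0376). The KO libraries lay just above the WT libraries, and the call was lost with limma on log2(FPKM + 1) (adjusted p = 0.063) and when WT replicate 1 (0.353) or KO replicate 1 (0.17) was left out. Of the other 5 that rose, Ndc80 reached 1.03 FPKM in KO replicate 1 and 4 were under 1 FPKM in every library. Among them Bub1, a checkpoint kinase, was at 0.0957 and 0.141 FPKM under WT and 0.440 and 0.328 FPKM under KO, and its log2 fold change was 1.72 (SE 0.41). Cenpf, a kinetochore protein, had a log2 fold change of 1.77 (SE 0.40), Cenpe, a kinetochore motor, 0.96 (SE 0.24), Nuf2 1.18 (SE 0.42) and Ndc80 0.76 (SE 0.23); the last pair belong to the complex that binds microtubules. Spc25, of the same complex, had a log2 fold change of 0.03 (SE 0.37) and Ttk, the checkpoint kinase MPS1, 0.66 (SE 0.57). Bub1b, the checkpoint protein BUBR1, was at 4.47 and 5.21 FPKM under WT and at 3.69 and 4.29 FPKM under KO. Both KO libraries were below both WT libraries for Bub1b, and the difference did not pass (log2 fold change -0.24, SE 0.13, adjusted p = 0.166).

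Of the 4 subunits of the chromosomal passenger complex, which corrects attachment errors and directs cytokinesis, the kinase Aurkb and survivin (Birc5) rose. Aurkb went from 0.353 and 0.208 FPKM under WT to 0.899 and 0.813 FPKM under KO (log2 fold change 1.55, SE 0.34, adjusted p = 0.00321). Birc5 went from 0.306 and 0.180 FPKM to 0.597 and 0.731 FPKM (log2 fold change 1.40, SE 0.35, adjusted p = 0.00727). Incenp, the scaffold, was the most abundant subunit, at 9.61 and 9.90 FPKM under WT and 11.1 FPKM in both KO libraries, without overlap, and did not pass (log2 fold change 0.21, SE 0.09, adjusted p = 0.0789). Cdca8 (borealin) had a log2 fold change of 0.17 (SE 0.22), and its groups overlapped.

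Of 6 mitotic kinesins 3 rose and 1 fell in vitro. Kif11, the motor that pushes spindle poles apart, was at 0.876 and 0.820 FPKM under WT and 1.56 and 1.23 FPKM under KO (log2 fold change 0.74, SE 0.18, adjusted p = 0.0075, and 0.0636 without KO replicate 1). Kif20a, a kinesin of the central spindle, was at 0.691 and 0.719 FPKM under WT and 1.17 and 1.07 FPKM under KO (log2 fold change 0.69, SE 0.21, adjusted p = 0.0223). Its call was lost with DESeq2 (0.0938) and when WT replicate 1 (0.0967) or KO replicate 1 (0.1) was left out, and exons of Cdc23 on the opposite strand share 29.3% of its exon bases. Kif2c, which depolymerizes microtubules at centromeres, rose in the fit without the filter (log2 fold change 1.47, SE 0.41). Kif15, a motor that can maintain spindle bipolarity beside KIF11, fell: it was at 3.41 and 3.65 FPKM under WT and at 2.69 and 2.30 FPKM under KO, with both KO libraries below both WT libraries (log2 fold change -0.47, SE 0.11, adjusted p = 0.00518). Kif23 and Kif4, motors of the central spindle and of chromosomes, had log2 fold changes of 0.18 (SE 0.13) and 0.72 (SE 0.38) and did not pass.

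Of 6 spindle microtubule proteins 3 rose. Tacc3, which helps to bundle kinetochore fibres, was at 2.16 and 2.24 FPKM under WT and 3.52 and 2.80 FPKM under KO (log2 fold change 0.55, SE 0.17, adjusted p = 0.026). Its adjusted p was 0.0524 with DESeq2, 0.177 when KO replicate 1 was left out and 0.0844 when WT replicate 1 was. Tpx2, which activates Aurora A and nucleates microtubules, was at 0.410 and 0.432 FPKM under WT and at 1.06 and 0.896 FPKM under KO (log2 fold change 1.22, SE 0.25, adjusted p = 0.00183). Hmmr, a spindle pole protein, rose on counts of 12 and 4 under WT and 29 and 21 under KO, a scaled ratio of 3.26 (95% exact interval 1.82 to 6.12, counting error only). Nusap1, Ckap2l and Prc1, which bind or bundle microtubules, had log2 fold changes of 0.77 (SE 0.33), 0.48 (SE 0.44) and -0.19 (SE 0.22) and did not pass.

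Of 3 cytokinesis genes, Racgap1 fell and Ect2 rose. Racgap1 encodes the GTPase-activating subunit of centralspindlin and was at 6.76 and 8.18 FPKM under WT and 5.22 and 5.71 FPKM under KO. Both KO libraries lay below both WT libraries (log2 fold change -0.42, SE 0.11, adjusted p = 0.0115), and without WT replicate 2 the adjusted p was 0.0998, without KO replicate 1 it was 0.0633. Ect2, the RhoA exchange factor that centralspindlin recruits, was at 0.425 and 0.5 FPKM under WT and 0.858 and 0.650 FPKM under KO, with a log2 fold change of 0.71 (SE 0.25, adjusted p = 0.0435). Anln (anillin) had a log2 fold change of 0.54 (SE 0.31) and did not pass.

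Of 3 genes of mitotic exit, Ube2c, the ubiquitin-conjugating enzyme of the APC/C, rose, on counts of 10 and 3 under WT and 22 in each KO library. Its scaled ratio was 3.53 (95% exact interval 1.87 to 7.13, counting error only), and exons of Tnnc2 on the opposite strand share 22.8% of its exon bases. Cdc20, the APC/C activator, was the most abundant of the 3 and did not pass, at 8.87 and 7.93 FPKM under WT and 8.48 and 8.90 FPKM under KO (log2 fold change 0.07, SE 0.13, adjusted p = 0.679). Cdca3, which promotes degradation of the CDK1 inhibitor WEE1, had a log2 fold change of 0.68 (SE 0.30, adjusted p = 0.0974).

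Of 6 chromosome structure genes 5 rose, and 3 of these passed under every alternative run. Mki67 encodes the chromosome surfactant and proliferation marker Ki-67. It was at 0.464 and 0.578 FPKM under WT and 1.97 and 1.53 FPKM under KO (log2 fold change 1.79, SE 0.18, adjusted p = 3.57e-05). Mki67 passed the filter only through the KO libraries, and its edgeR adjusted p without the filter was 8.53e-06. Top2a, the DNA topoisomerase of replication and chromosome condensation, was at 1.13 and 1.53 FPKM under WT and 3.51 and 2.72 FPKM under KO (log2 fold change 1.27, SE 0.17, adjusted p = 0.000193). Hmgb2, a chromatin protein abundant in dividing cells, was at 18.1 and 20.3 FPKM under WT and 37.6 and 32.0 FPKM under KO (log2 fold change 0.89, SE 0.10, adjusted p = 9.11e-05). For these 3 genes, KO was above WT in each library, and the call held under all 13 alternatives run for each of them. Ncapg, a condensin I subunit, was at 0.165 and 0.113 FPKM under WT and 0.566 and 0.319 FPKM under KO (log2 fold change 1.62, SE 0.36, adjusted p = 0.00341). Exons of Lcorl on the opposite strand share 13.4% of the exon bases of Ncapg. Smc4, an ATPase subunit of both condensins, was by far the most abundant of the 45 genes, at 113 and 130 FPKM under WT and 184 and 133 FPKM under KO. The KO libraries barely cleared the WT libraries (log2 fold change 0.41, SE 0.14, adjusted p = 0.0461), and the adjusted p was 0.227 with DESeq2, 0.447 when KO replicate 1 was left out and 0.0989 when WT replicate 1 was. Its partner Smc2 was at 8.49 and 8.93 FPKM under WT and 11.1 and 8.39 FPKM under KO, and did not pass. Smc4 carries Mir15b and Mir16-2 in introns, with no shared exon bases.

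In vivo, 43 of the 45 genes were higher in both KO libraries than in both WT libraries, but the 2 KO libraries lay far apart and 1 gene passed the test. All 45 were tested, 4 of them (Ccnb1, Cenpf, Anln and Ttk) having passed the filter only through the KO libraries. Kif23 rose and none fell, against 0.284% and 0.821% of 10227 genes tested. For the other 44 genes the edgeR adjusted p ranged from 0.0683 (Cenpf) to 0.951 (Cenpa). At an unadjusted p under 0.05 edgeR gave 43 genes as positive and 1 as negative, against 7.21% of all genes positive. Both KO libraries lay above both WT libraries for 22.0% of all genes tested and below them for 21.4%. The median log2 fold change was 1.21 over the 45 genes and -0.00 over all genes tested. The exceptions were Cenpa, whose groups overlapped, and Smc4, which was lower in both KO libraries.

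The libraries followed 1 order. For 41 of the 45 genes KO replicate 1 was highest, then KO replicate 2, WT replicate 1 and WT replicate 2, an order that 9.04% of all genes tested had. Relative to the mean of the WT libraries, the median gene was at 1.12 and 0.878 in WT replicates 1 and 2, and at 2.95 and 1.66 in KO replicates 1 and 2. KO replicate 1 exceeded KO replicate 2 by a median of 1.76 times. The number of genes called moved with single libraries: without KO replicate 2, 38 of the 45 rose (1.89% of all genes did), without KO replicate 1 or without WT replicate 2 none rose (0.0293% and 0.00978% of all genes), and without WT replicate 1 Kif23 rose and Smc4 fell (0.655% and 1.21% of all genes). DESeq2 on the same 4 libraries called 35 risen and 1 fallen (Smc4), against 2.54% and 2.4% of all genes. With the spread shared over all 8 libraries 32 rose, against 2.66% of all genes.

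**Figure D3:**
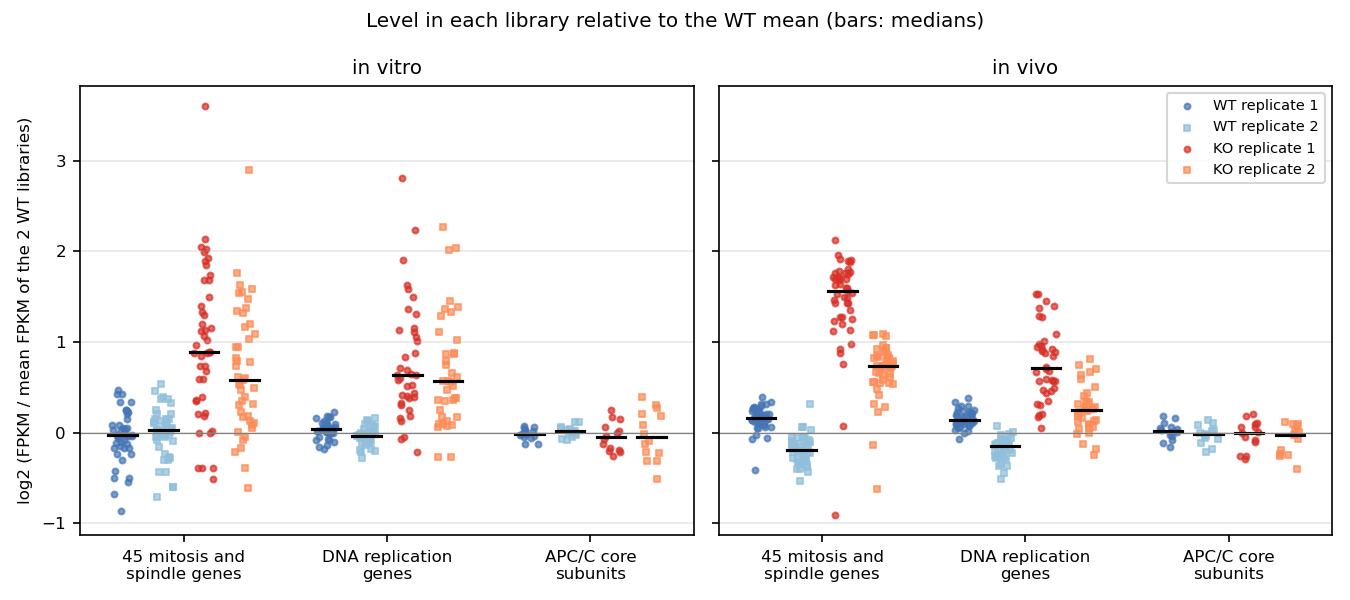
Level of each gene in each library relative to the mean of the 2 WT libraries, as log2 of the FPKM ratio, in vitro (left) and in vivo (right), for the 45 genes, 38 DNA replication genes and 14 APC/C core subunits; bars are medians. In vivo the 45 genes step down from KO replicate 1 (median ratio 2.95) to KO replicate 2 (1.66), WT replicate 1 (1.12) and WT replicate 2 (0.878), while APC/C core subunits stay near 0 in all 4 libraries.

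Kif23, the kinesin subunit of centralspindlin, was at 2.52 and 2.01 FPKM in the WT libraries and 6.13 and 4.79 FPKM in the KO libraries in vivo. The groups did not overlap and its KO libraries were closer to each other than those of most of the genes (log2 fold change 1.26, SE 0.17, edgeR adjusted p = 0.0393). Its adjusted p was 0.0547 with limma on log2(FPKM + 1), 0.143 when WT replicate 2 was left out and 0.0904 when KO replicate 1 was. The other centralspindlin subunit, Racgap1, was at 4.67 and 3.66 FPKM under WT and 9.03 and 6.07 FPKM under KO (log2 fold change 0.85, SE 0.22, adjusted p = 0.147). Kif11, the most abundant of the kinesins in vivo, was at 6.02 and 4.21 FPKM under WT and 15.9 and 8.99 FPKM under KO (log2 fold change 1.27, SE 0.29). Kif15 was at 1.89 and 1.74 FPKM under WT and 4.88 and 3.02 FPKM under KO (log2 fold change 1.11, SE 0.23, adjusted p = 0.103), so that both KO libraries were above both WT libraries here and below them in vitro.

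The most abundant gene of 6 other roles (cyclins, kinases, kinetochore, passenger complex, spindle proteins and mitotic exit) had both KO libraries above both WT libraries in vivo, without passing the test. Ccnb2 was at 12.6 and 7.92 FPKM under WT and 24.9 and 15.0 FPKM under KO (log2 fold change 0.95, SE 0.30). Plk1 was at 7.83 and 4.78 FPKM under WT and 21.1 and 9.26 FPKM under KO (1.26, SE 0.41). Bub1b was at 8.93 and 6.99 FPKM under WT and 17.5 and 9.35 FPKM under KO (0.75, SE 0.30). For Bub1b, KO replicate 2 lay close to WT replicate 1. Incenp was at 17.3 and 14.1 FPKM under WT and 28.9 and 19.1 FPKM under KO (0.61, SE 0.21). Tpx2 was at 5.76 and 4.38 FPKM under WT and 17.8 and 9.20 FPKM under KO (1.40, SE 0.32). Cdc20, whose groups overlapped in vitro, was at 8.22 and 5.69 FPKM under WT and 21.0 and 11.5 FPKM under KO (1.21, SE 0.32). In each of these KO replicate 1 was well above KO replicate 2.

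Among chromosome structure genes in vivo, Mki67 was at 15.4 and 13.8 FPKM under WT and 47.2 and 26.2 FPKM under KO (log2 fold change 1.32, SE 0.27, adjusted p = 0.0977). Top2a was at 13.9 and 10.5 FPKM under WT and 40.2 and 22.6 FPKM under KO (1.35, SE 0.28). Smc4 was at 82.1 and 136 FPKM under WT and 58.2 and 70.9 FPKM under KO (-0.77, SE 0.24, adjusted p = 0.224). Smc4 was the gene with both KO libraries below both WT libraries, and WT replicate 2, the lowest library for most of the 45 genes, was its highest. Cenpa was at 10.3 and 10.7 FPKM under WT and 11.1 and 9.52 FPKM under KO (-0.04, SE 0.12, adjusted p = 0.951). The largest differences that did not pass were those of Ccnb1 (1.60, SE 0.43), Cenpf (1.55, SE 0.28), Ube2c (1.54, SE 0.35) and Ccna2 (1.53, SE 0.36). Among these, Ccnb1 and Cenpf had passed the filter only through the KO libraries. In the fit without the filter their log2 fold changes were 1.61 (SE 0.42) and 1.55 (SE 0.27).

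Some markers of other cells moved with the library order in vivo. The summed FPKM of 6 B cell markers was 11.5 and 3.89 in WT replicates 1 and 2 and 21.2 and 14.4 in KO replicates 1 and 2, and all 6 (Cd79a, Cd79b, Ms4a1, Pax5, Ebf1 and Blnk) had the order of the mitotic genes. The sum of 8 listed myeloid markers (Cd14 was not listed) was 146, 80.9, 333 and 171 in the same libraries, with 3 of the 8 higher in both KO libraries and 2 in the full order, Lyz2 at 109 FPKM in KO replicate 1 and 10.7 to 25.6 FPKM in the others, and S100a8 at 0 in WT replicate 2. The gamma delta T marker Sox13 was at 21.0 and 15.4 FPKM under WT and 48.4 and 31.4 FPKM under KO, while Il17a, the only other marker of that list present, was at 3.93 and 0.796 FPKM under WT and lower, at 0.559 and 0.267 FPKM, under KO. Of 9 double-positive thymocyte markers 6 were higher in both KO libraries, with sums of 84.5 and 101 FPKM under WT and 135 and 153 FPKM under KO, where KO replicate 2 was the highest library and 3 genes had the order of the mitotic genes. Dntt, the terminal transferase of immature thymocytes, was at 14.3 and 8.76 FPKM under WT and 62.1 and 29.4 FPKM under KO. None of these passed the edgeR test, and their part in the result was not tested. Sums of early DN markers (65.3 to 69.5 FPKM) and of alpha beta T cell markers (949 to 1155 FPKM) did not follow that order. Cd44, at 25.8 to 37.9 FPKM, was the largest part of the early DN sum. Of the 8 early DN markers listed 4 were higher in both KO libraries, while Kit and Lyl1 were lower in both. Kit was the 1 that passed (edgeR adjusted p = 0.0388). It fell from 10.7 and 19.5 FPKM under WT to 3.61 and 3.7 FPKM under KO. Of the remaining lists, regulatory T markers summed to 128 and 187 FPKM under WT and 90.7 and 146 FPKM under KO, innate-like T and NK markers to 255, 182, 265 and 242 FPKM, erythroid markers to 20.1 to 28.4 FPKM and stroma markers to 20.3 to 26.6 FPKM. In vitro both B cell markers that were listed rose, Cd79a and Cd79b, with sums of 2.95 and 2.85 FPKM under WT and 5.06 and 5.76 FPKM under KO, and so did the stroma list's Epcam and Pecam1, with list sums of 15.6 and 17.4 against 29.7 and 28.3 FPKM. Of the B cell list, Ms4a1, Pax5, Ebf1 and Blnk were not listed in vitro. Of the stroma list, Krt5, Krt8, Foxn1, Col3a1 and Pdgfra were not listed either, and Col1a1 was at 0.0373 to 0.215 FPKM. The other in vitro sums, under WT and KO, were 36.0 and 43.0 against 48.3 and 42.8 FPKM for double-positive markers. Of the 6 double-positive markers tested with the filter in vitro, Cd4, Cd8b1 and Themis rose and Cd8a and Dntt fell. Among all genes 20.1% rose and 17.7% fell by that rule. Dntt was at 4.74 and 5.39 FPKM under WT and 2.58 and 2.35 FPKM under KO (log2 fold change -1.01, SE 0.17). Regulatory T markers summed to 151 and 155 against 97.3 and 97.7 FPKM, mostly from Ikzf2, which fell. Ikzf2 alone was at 116 and 123 against 74.65 and 70.6 FPKM, while Foxp3 was at 0.296 to 0.468 FPKM. Ctla4 rose with the filter (log2 fold change 0.68, SE 0.24) but did not pass without it. Early DN markers summed to 7.01 and 6.89 against 4.91 and 4.36 FPKM. Among them Il2ra fell (log2 fold change -1.98, SE 0.14) and Kit rose (1.52, SE 0.22). The innate-like T and NK list summed to 23.4 and 24.3 against 34.5 and 30.5 FPKM, mostly from Cd1d1. Cd1d1 alone was at 23.1 and 23.9 FPKM under WT and 33.6 and 29.5 FPKM under KO. Klrb1c, Klrk1, Ncr1, Eomes and Tbx21 were not listed in vitro. Myeloid markers summed to 3.98 and 4.23 FPKM under WT and 4.58 and 4.42 FPKM under KO. The gamma delta marker present, Sox13, was at 0.155 and 0.142 against 0.196 and 0.331 FPKM. Erythroid markers summed to 61.7 and 70.2 against 43.1 and 51.3 FPKM, mostly from Tfrc, which fell. Tfrc alone was at 59.5 and 56.2 against 39.0 and 36.5 FPKM, while Alas2 was at 0.225 to 0.422 FPKM and Gata1 at 0.0683 to 0.151 FPKM. The part of all these markers in the in vitro result was not tested either.

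The effect of the KO label differed between the systems in 4 of the 20 genes tested, a share near that of all genes. The difference (KO against WT in vivo minus KO against WT in vitro, on the log2 scale) was tested in 1 edgeR fit over all 8 libraries for the 20 genes tested in both systems. It passed for 4 genes, against 16.4% of 9364 genes (6.57% larger and 9.81% smaller in vivo). It was larger in vivo for Kif15 (1.61, SE 0.27, adjusted p = 0.00372), Racgap1 (1.29, SE 0.26, adjusted p = 0.00908) and Kif23 (1.10, SE 0.23, adjusted p = 0.00929), and smaller for Smc4 (-1.14, SE 0.30, adjusted p = 0.0275). Kif15 and Racgap1 fell in vitro and Kif23 did not pass there, while for all 3 both KO libraries were above both WT libraries in vivo. They passed in all 14 alternatives, whereas Smc4 did not in 6, with adjusted p of 0.126 without in vitro WT replicate 1 and 0.118 without in vitro KO replicate 1. Without in vivo KO replicate 2 the count was 8 genes. Cdc20 (1.17, SE 0.36, adjusted p = 0.0506) and Bub1b (1.01, SE 0.35, adjusted p = 0.0745) were the closest to passing. For the remaining 14 the difference ranged from -0.44 (Mki67, SE 0.37) to 0.86 (Ccnb1, SE 0.50). Without the filter all 45 were tested and Prc1 was added (difference 1.39, adjusted p = 0.0487), for a count of 5 against 13.5% of all genes (5.63% larger and 7.88% smaller in vivo).

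**Figure D4:**
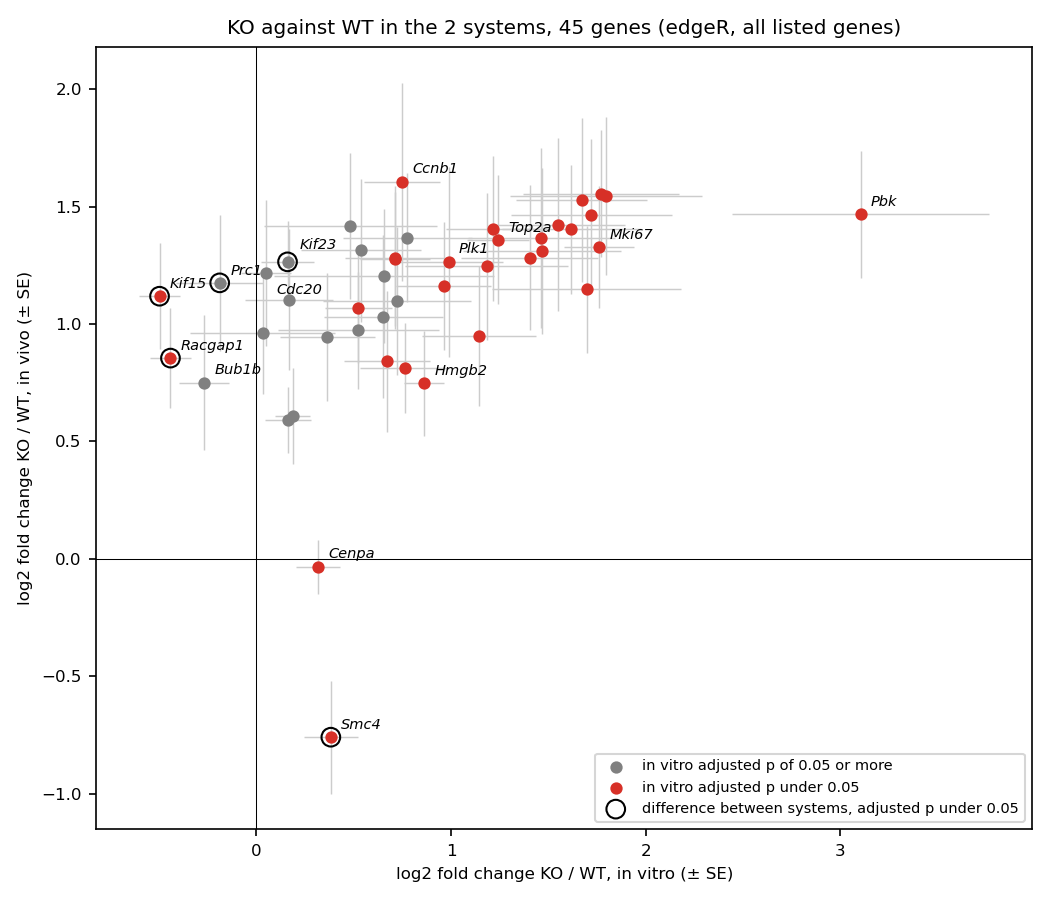
Log2 fold change of KO against WT in vitro (horizontal) and in vivo (vertical) for the 45 genes, from the edgeR fits without a filter, with lines of 1 SE. Red points had an adjusted p under 0.05 in vitro and ringed points had one for the difference between systems; Kif15 and Racgap1 sit at negative values in vitro and positive values in vivo, and Smc4 the reverse.

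The WT levels of these genes were also unlike between systems, although the tables were normalized separately and the libraries came from different companies. The mean WT level was higher in vivo for 39 of the 45 genes, by over 5-fold for 27, and the median ratio was 7.38. Pbk (ratio 59.5, with 4 counts in all in the WT libraries in vitro), Ube2c (39.6) and Mki67 (28.0) had the largest ratios. The 6 genes that were lower in vivo were Kif15 (ratio 0.514), Racgap1 (0.558), Hmgb2 (0.802), Cdc20 (0.828), Smc4 (0.896) and Ccnb1 (0.898). The WT values in vitro enter both these ratios and the in vitro fold changes. Smc4, Hmgb2, Incenp, Cenpa, Smc2, Cdc20 and Racgap1 were at 5 FPKM or more in every WT library in vitro, where the median over the 45 genes was below 1 FPKM.

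**Figure D5:**
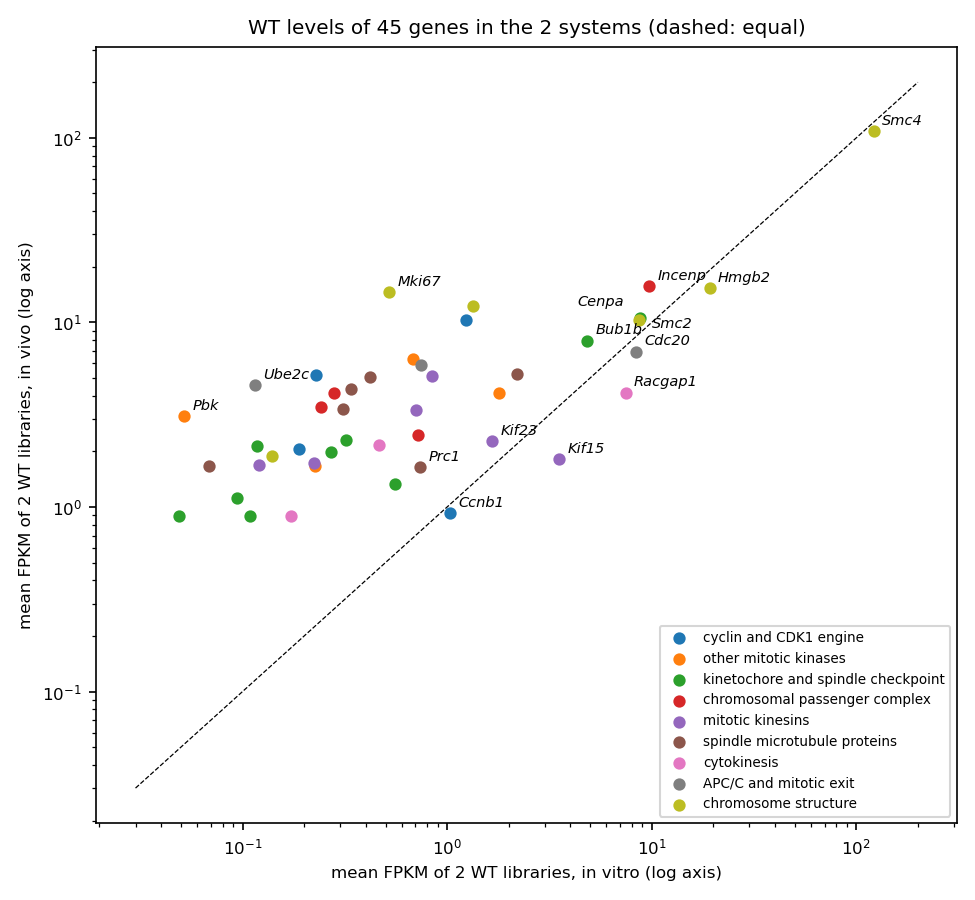
Mean FPKM of the 2 WT libraries in vitro (horizontal) and in vivo (vertical) for the 45 genes, on log axes, coloured by role, with a dashed line of equal values. Of the 45 genes 39 lie above the line, Pbk, Ube2c and Mki67 farthest from it, and 6 lie below it.

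Other genes of the pathway were read from the same fits, as counts, first without the filter, where 17.5% of all genes rose and 16.5% fell, and then with it, where 20.1% rose and 17.7% fell. Values in parentheses are log2 fold changes from the fit with the filter. In vitro, 27 of 38 DNA replication genes rose and none fell, and with the filter 27 of 36 (median log2 fold change 0.56). They include Ccne1, the G1/S cyclin E1 (1.53, SE 0.19), and Cdc6, which loads the replicative helicase, at 0.382 and 0.269 FPKM under WT and 1.53 and 1.34 FPKM under KO (2.13, SE 0.23). Of 36 other kinetochore, centromere and checkpoint genes 8 rose and 1 fell, and with the filter 6 and 1 of 22, a share of rises near that of all genes. The largest changes with the filter were those of the histone H3 kinase Haspin (0.93, SE 0.22), Cenpm (0.81, SE 0.29) and Cenpn, which fell (-0.85, SE 0.24). Haspin lies between exons of Itgae, on the opposite strand. Cdc6, Cenpm and Mybl2 passed the filter only through the KO libraries and Cenpn only through the WT libraries, and Cenpm did not pass the test without the filter.

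Of 40 other spindle, motor, centriole and cytokinesis genes 14 rose and 1 fell, and with the filter 6 and 1 of 21. The kinesins Kifc1 (1.38, SE 0.19) and Kif22 (1.05, SE 0.11) rose, and Pttg1, the securin that restrains separase, fell (-0.55, SE 0.12). Of 17 other regulators of G2/M entry and exit 5 rose and 1 fell, and with the filter 4 and 1 of 14. Cdc25b, a phosphatase that activates CDK1, was at 16.8 and 20.4 FPKM under WT and at 46.3 and 40.5 FPKM under KO (1.25, SE 0.11). Wee1, the kinase that inhibits CDK1, rose as well (0.80, SE 0.10), while Cks2, a CDK subunit, fell (-0.37, SE 0.10). Of 20 G2/M transcription factors and MuvB genes 6 rose and 1 fell, and with the filter 7 and 1 of 19. E2f2, an activator E2F (2.09, SE 0.18), and Mybl2, which encodes B-MYB (1.21, SE 0.21), rose, and E2f5, a repressor E2F of DREAM-type complexes, fell (-0.86, SE 0.15). Of 14 APC/C core subunits Anapc16 rose and Anapc4 fell without the filter, and with it Anapc16 (0.29, SE 0.09) and Anapc2 (0.26, SE 0.08) rose. Of 16 other condensin and cohesin genes Ncapg2 and Esco2 rose without the filter, both under 1 FPKM in the WT libraries, and with the filter none of 14 passed. Anapc4, Ncapg2 and Esco2 were named after their values were seen.

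In vivo none of these 7 lists had a gene past the threshold, where 0.284% of all genes tested rose and 0.821% fell. The median log2 fold change in vivo was 0.92 for the other spindle and motor genes, 0.60 for the other kinetochore genes, 0.49 for DNA replication, 0.37 for the G2/M regulators, 0.17 for condensin and cohesin, 0.13 for the transcription factors and -0.01 for the APC/C core. E2f4, the most abundant of the transcription factors in vivo, was at 79.0 and 66.8 FPKM under WT and 79.2 and 80.8 FPKM under KO, and the cohesin subunit Rad21 at 62.4 and 64.0 FPKM under WT and 77.1 and 71.0 FPKM under KO. Mcm6, a subunit of the replicative helicase, was at 68.1 and 61.4 FPKM under WT and 73.1 and 57.0 FPKM under KO, where the groups overlapped. The 45 genes (median 1.21) thus lay above each of these lists in vivo, a description of medians without a test.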

How the data were processed

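Each deposited table holds, per gene and library, a whole-number count and an FPKM value, as the authors computed them. Per the submitters' processing notes the build was mm10 and the tools were RSEM, DESeq2, featureCounts, Subread, Bowtie2 and Trim Galore 0.4.4, listed with no role or order. Strand setting and annotation: not given in the sources used here. From the deposited counts, KO and WT were compared within each system's 4 libraries with edgeR 4.0.16 (R 4.3.3; TMM, quasi-likelihood, two-sided, Benjamini-Hochberg over all genes tested, threshold 0.05), for genes at 1 FPKM or more in at least 2 libraries (9658 in vitro, 10227 in vivo). The difference between systems was a contrast of group means over all 8 libraries (9364 genes). The fit of all 45 genes in vitro without the filter was added after the data were seen. The 45 genes and the other gene lists (9 role groups, 7 pathway lists, 10 marker lists) were chosen with earlier results of these data known. Any of the 45 could be named; of each pathway list, the 2 largest rises and 2 largest falls past the threshold, or, where none passed, the most abundant genes. Marker genes were named after their values were seen, and 1 marker gene is not reported here. SE is that of the edgeR log2 fold change. edgeR's common biological coefficient of variation came to 0.0727 (in vitro libraries) and 0.121 (in vivo libraries). Alternatives were DESeq2 1.42.0, limma 3.58.1 on log2(FPKM + 1) and log2(FPKM + 0.1), RLE size factors, other filters, all 8 libraries, each library left out in turn, and a replicate block. Where 1 library remained in a group, its spread was taken from the other groups. The fitting procedure was tested on simulated data. Coordinates and overlapping exons are from GENCODE M21 (GRCm38, the assembly of mm10); promoter sequences are from RefSeq.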

Additional observations from a re-analysis of the deposited data

Results flagged for a closer look

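For 4 of the 20 genes tested in both systems the effect of the KO label differed between the in vivo and in vitro systems, by an edgeR test of the difference itself over all 8 libraries. The difference (in vivo minus in vitro, log2) was 1.614 for Kif15, 1.294 for Racgap1 and 1.101 for Kif23, and -1.138 for Smc4. Among all genes 16.4% passed this test, and without the filter 5 of 45 did against 13.5%, so the share among these genes is near or below that of all genes. The KO-against-WT effect was compared within each company's libraries, and company and system cannot be told apart beyond that.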

How the results depend on the processing

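No gene that passed changed direction under an alternative run for it. Signs turned in some alternative for genes that had not passed: 7 of the 45 in vitro without the filter, 7 of the 20 for the difference, and in vivo Cenpa, at -0.1554 to 0.07783 when each library was left out (the positive value without KO replicate 2). Of single-gene results, 138 kept their side of the threshold and 30 lost the call in vitro, 388 kept it, 147 gained a call and 4 lost one in vivo, and 50 kept it and 6 lost it for the difference. In vitro, with the filter, the count of risen genes (11) was 7 with DESeq2, 27 with no filter on FPKM and 4 with the spread shared over all 8 libraries, where 0 fell; leaving out each library gave 5 to 13 risen and 1 to 2 fallen. Over all 45 genes, in settings added after the data were seen, 16 rose with DESeq2, and leaving out each library gave 15 to 29 risen and 1 to 3 fallen. In vivo, the count of risen genes (1) was 35 with DESeq2 (1 fallen), 0 with limma at either pseudocount and 32 with all 8 libraries; leaving out each library gave 0 to 38 risen and 0 to 1 fallen. Among all genes in vivo, 113 passed, 505 with DESeq2, 68 (pseudocount 1) and 75 (pseudocount 0.1) with limma, 545 with all 8 libraries, and 7 to 279 when each library was left out. For the difference the count of 4 ranged from 3 to 8 when each library was left out. The deviations of same-numbered WT and KO libraries had a correlation of -0.305 in vitro, where they tended to opposite directions, and 0.46 in vivo. With 2 pairs and no shared animal or batch in the labels, the numbers do not pair the samples. With a replicate block the counts were 12 risen and 2 fallen in vitro (26 and 2 over all 45 genes), 43 risen and 1 fallen in vivo, 1078 among all genes in vivo and 6 for the difference. With the crossed replicate block, added after the data were seen, 4997 genes passed in vitro against 3649, with 13 of the tested members risen and 2 fallen. Among all genes in vitro 20.1% rose with the filter, 17.5% without it and 13.7% without it under DESeq2. For most of the other in vitro counts the share of all genes under the same alternative is not given here. Those counts show only how far the number of called members moved. The cause of the shifts between alternatives was not tested. With 2 libraries per group few residual degrees of freedom remain, and depth limits the lowest genes in vitro, where a library held as few as 1 count of Pbk.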
